A study of Mus musculus with 24 samples.

Results

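Guanylate-binding proteins (GBPs) are large GTPases that interferon and bacterial products switch on in macrophages, and loss of single members is known to weaken the defence against intracellular microbes. They gather on the vacuoles and surfaces of intracellular bacteria and parasites and help to open them to the inflammasome and to autophagy factors. In the mouse their genes lie in 2 clusters, and the start sites of many of them carry elements called GAS and ISRE, through which interferon acts on transcription. The members described here were Gbp2 to Gbp11, and chromatin accessibility was read at every consensus peak that touched a member's gene body or the 10 kb on either side of it in the GENCODE annotation, each peak being counted for its nearest member. This gave 76 peaks out of 184158 in the whole series, on the mm10 build. Of these, 33 lay in the chromosome 3 cluster, which holds Gbp5, Gbp7, Gbp3 and Gbp2 between bases 142493978 and 142638008, and 43 lay in the chromosome 5 cluster, which holds Gbp8, Gbp9, Gbp4, Gbp10, Gbp6 and Gbp11 between bases 105014150 and 105346472. Gbp5 had the most peaks (12) and Gbp10 the fewest (3). The peaks were assigned by gene name and position, without use of their accessibility, while the family itself was picked with earlier results of these data known.

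The series held ATAC-seq libraries, in which a transposase cuts open chromatin, from macrophages grown out of mouse bone marrow with GM-CSF (10 ng/ml) and TGF-β (2 ng/ml), a mixture that gives cells resembling alveolar macrophages. There were 4 groups of 6 libraries. WT cells came from C57/B6/J mice and AhR-KO cells from mice of the strain B6.129-Ahr tm1Bra/J, which lack the aryl hydrocarbon receptor, a ligand-activated transcription factor, in all cells of the body. Cells of each genotype were left unstimulated or received LPS, the endotoxin of Gram-negative bacteria (97 EU/ml, 24 h, from day 6), and the labels describe a calcium ionophore step (A23187, 5 µM, 10 min) for every library. In whole-body knockout marrow an effect on precursor cells and one on the mature macrophage cannot be told apart. In bulk libraries fewer open cells and less opening per cell cannot be told apart either. As the genotypes are named as separate strains, other differences between the strains cannot be told apart from the loss of AhR.

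Library totals over all consensus peaks ranged from 8.54 to 23.1 M counts in unstimulated WT, 18.9 to 25.7 M in unstimulated AhR-KO, 25.1 to 34.6 M in WT with LPS and 22.4 to 28.5 M in AhR-KO with LPS. The peak at the start of Ahr itself measured 22.5 ± 1.67 CPM (the count of a peak scaled to a common depth by the TMM-adjusted library total) in unstimulated WT and 13.2 ± 1.199 CPM in unstimulated AhR-KO (SD, n = 6), with no overlap. The labels do not say which part of Ahr the allele removes, so this peak is no direct check of the genotype. Start-site peaks were found for 7 of 7 macrophage markers, whose summed accessibility ran from 164 to 189, 191 to 258, 140 to 158 and 128 to 189 CPM in the same order of groups. Of the 5 alveolar macrophage markers (Siglecf, Pparg, Marco, Car4, Fabp4) all had a start peak and 3 averaged above 5 CPM. Several marker peaks were DARs themselves (adjusted p of at most 0.05 and at least 1.5-fold). Marco, Car4 and Fabp4 were higher in AhR-KO without LPS and Fabp4 also with it, and LPS lowered Siglecf and Marco in both genotypes and 3 of the 7 macrophage markers in AhR-KO. Of the dendritic cell markers (4 with a start peak, 3 tested) Flt3 was lower in AhR-KO in both states, by log2 fold changes of -1.16 ± 0.16 without and -1.29 ± 0.15 with LPS. Ccr7 was lower in AhR-KO with LPS (-1.53 ± 0.24) and rose with LPS in both genotypes (2.83 ± 0.29 for WT and 2.13 ± 0.34 for AhR-KO cells), while Zbtb46 fell with LPS in AhR-KO. The dendritic list summed to 25.8 to 35.4, 26.7 to 32.8, 28.4 to 45.4 and 20.1 to 25.96 CPM. Of the 2 neutrophil markers with a start peak (of 4) Mpo rose with LPS (log2 fold change 1.955 ± 0.165 for WT and 1.65 ± 0.15 for AhR-KO cells), and the list summed to 19.3 to 29.2 CPM over all libraries. The 2 T cell markers with a start peak (of 4) summed to at most 2.93 CPM in a library. Of these Cd3e was lower in AhR-KO in both states and higher with LPS in both genotypes, and Thy1 was lower in AhR-KO with LPS and fell with LPS in AhR-KO. No start peak was found for any of the 4 B cell markers, and neither of the 2 fibroblast markers with one (of 3) was a DAR. The fibroblast list summed to 17.1 to 26.9 CPM over all libraries. None of the marker peaks was a DAR of the interaction. The part of these differences in the results below was not tested.

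The upstream sequence is shown for the 4 chromosome 3 members, the only ones with a RefSeq entry. Letters of an interferon-type element stood in at least 1 entry of each. The share of other genes with such letters in the same RefSeq windows was not computed. The sequences are from RefSeq on GRCm38.p6 (mm10), plus strand, and 4 of the 10 members were in that table: Gbp5 (chr3:142496684-142496933), Gbp7 (chr3:142530086-142530335), Gbp3 (chr3:142559794-142560043) and Gbp2 (chr3:142620413-142620662). A second Gbp3 entry (chr3:142560106-142560355), under the same start peak, held neither kind of match and is not printed. Entries for Gbp4, Gbp6, Gbp8, Gbp9, Gbp10 and Gbp11 were missing. Capitals mark an ISRE-type match (GAAA, any 2 bases and GAAA again, on either strand) or a GAS-type match (TTCNNNGAA, which reads alike on both strands), and each sequence is the 250 bases before the RefSeq start. The Gbp5 window lies inside the GENCODE gene record, under the peak at the start of its main coding transcript.
Gbp5 promoter: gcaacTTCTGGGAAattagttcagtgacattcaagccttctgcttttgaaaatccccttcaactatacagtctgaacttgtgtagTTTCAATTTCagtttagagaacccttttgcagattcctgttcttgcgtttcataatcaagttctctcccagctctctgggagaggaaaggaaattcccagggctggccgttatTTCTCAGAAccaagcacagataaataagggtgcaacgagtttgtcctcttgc
Gbp7 promoter: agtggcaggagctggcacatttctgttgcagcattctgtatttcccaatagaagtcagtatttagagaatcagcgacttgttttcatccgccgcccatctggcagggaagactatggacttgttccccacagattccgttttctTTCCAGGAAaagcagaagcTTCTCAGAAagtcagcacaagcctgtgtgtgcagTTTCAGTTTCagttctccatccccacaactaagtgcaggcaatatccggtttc
Gbp3 promoter: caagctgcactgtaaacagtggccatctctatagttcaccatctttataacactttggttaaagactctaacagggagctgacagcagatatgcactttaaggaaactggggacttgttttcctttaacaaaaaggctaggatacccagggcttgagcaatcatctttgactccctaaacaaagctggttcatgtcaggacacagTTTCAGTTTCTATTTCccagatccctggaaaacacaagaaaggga
Gbp2 promoter: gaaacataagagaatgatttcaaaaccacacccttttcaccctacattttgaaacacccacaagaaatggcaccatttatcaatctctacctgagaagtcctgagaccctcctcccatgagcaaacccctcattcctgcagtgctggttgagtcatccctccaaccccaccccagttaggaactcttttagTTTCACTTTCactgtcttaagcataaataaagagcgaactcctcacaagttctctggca

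The ISRE-type letters began 165 bases before the start in Gbp5, 53 in Gbp7, 59 in Gbp2 and, as an overlapping pair, 45 and 39 in Gbp3. GAS-type letters began 245 and 52 bases before the start in Gbp5 and 106 and 87 in Gbp7. In a window from 250 bases before to 50 after the GENCODE gene start, ISRE-type letters stood in 3 of the 10 members (Gbp2, Gbp3, Gbp7), beside 3.55% of 21910 protein-coding genes. GAS-type letters stood there in Gbp7 alone among the members, beside 8.38% of those genes. The AhR core letters GCGTG stood in the window of Gbp5 alone, beside 36.8%. Such matches describe letters and not binding, and the absence of a match says only that these letters are not in the window.

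Accessibility is given as CPM throughout. A peak was called a differentially accessible region (DAR) when its adjusted p did not exceed 0.05 and its fold change reached 1.5 in either direction (edgeR's quasi-likelihood test on all 24 libraries, Benjamini-Hochberg over all tested peaks). Of the 76 member peaks 72 had enough fragments to be tested. The 4 others were short peaks in Gbp7, Gbp3, Gbp4 and Gbp6 that averaged below 0.5 CPM in every group.

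The clearest change in this family was the response to LPS. In WT cells 42 of the 72 tested peaks were DARs (58.3%, beside 47.0% of all 174193 peaks tested). Of these 37 rose and 5 fell, which was 51.4% and 6.94% beside 25.4% and 21.6%. In AhR-KO cells 50 were DARs (69.4%, beside 48.8%), and 45 rose and 5 fell, or 62.5% and 6.94% beside 27.3% and 21.5%. The member peaks that rose in both genotypes numbered 35, beside 20.9% of all tested peaks. The median log2 fold change over the 72 peaks was 0.62 for WT and 1.01 for AhR-KO cells, against -0.01 and 0.05 over all tested peaks. In WT the libraries with and without LPS did not overlap for 28 peaks in the upward direction and 8 in the downward one (beside 20.5% and 18.3% of all), and in AhR-KO for 43 and 7 (beside 24.9% and 20.6%). The marker peaks of Ccr7, Mpo and Cd3e rose with LPS in both genotypes too, and their part in these counts was not tested.

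Start-site levels differed widely between members. Per kilobase of peak, the start of Gbp7, which has been linked to the delivery of the phagocyte oxidase, had the highest mean in every group. It was 38.1 CPM per kb in unstimulated WT. In WT with LPS its libraries (23.95 to 28.3 CPM per kb) overlapped those of the gene-record start of Gbp5 (19.7 to 24.99 CPM per kb). In unstimulated WT the gene-record start of Gbp5, which promotes NLRP3 inflammasome assembly, followed at 28.8 CPM per kb. The starts of Gbp3 and Gbp2 stood at 18.8 and 12.6 CPM per kb. The peak over the start of the main coding transcript of Gbp5 stood at 12.57 CPM per kb, its libraries overlapping those of Gbp2. On chromosome 5 the peak at the annotated 5′ end shared by Gbp4, Gbp8 and Gbp9 stood at 4.44 CPM per kb, that of Gbp6 at 4.14 CPM per kb and that of Gbp10 at 1.27 CPM per kb. In unstimulated WT the libraries of the shared start and of Gbp6 overlapped, and Gbp10 lay below every other start peak without overlap. Gbp9 also has a start of its own inside the locus, and its peak there was open at 17.96 CPM per kb, its libraries overlapping those of Gbp3. The start of Gbp11 stood at 7.94 CPM per kb and its second annotated start at 13.3 CPM per kb, where the libraries overlapped those of Gbp2, so that the levels of the 2 clusters overlapped.

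**Figure D1:**
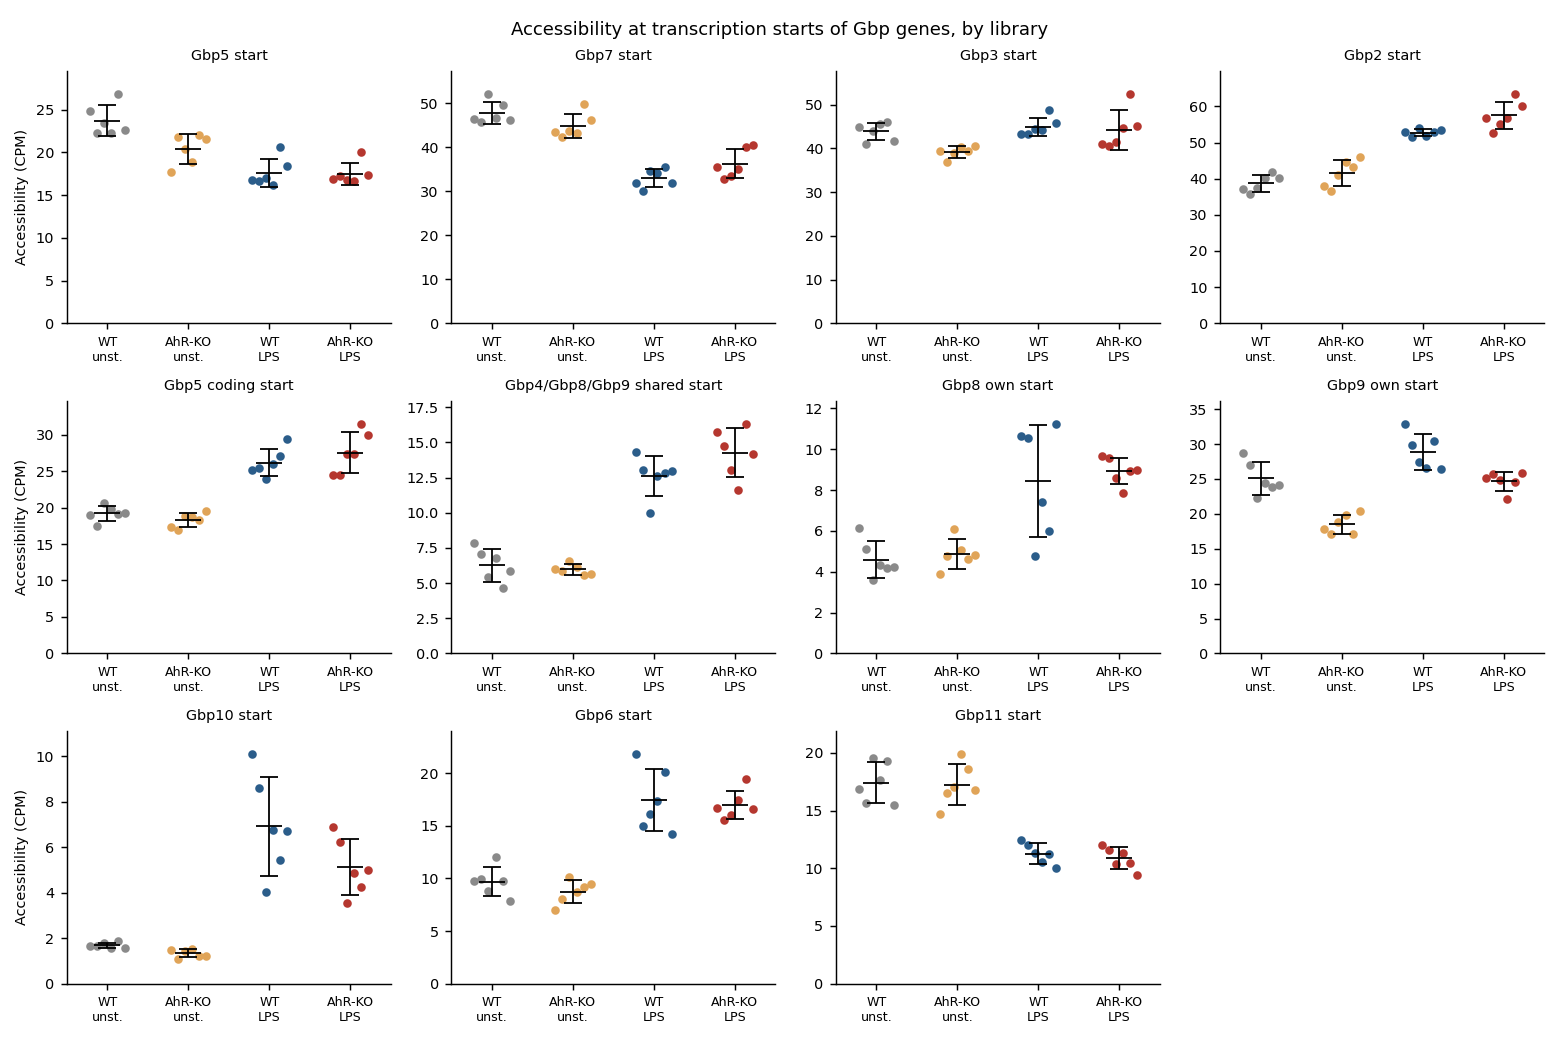
Accessibility (CPM, linear axis from 0) at the start-site peaks of the Gbp genes in the 4 groups; each point is 1 library, bars are mean ± SD of 6 libraries. Gbp10, Gbp6 and the start shared by Gbp4, Gbp8 and Gbp9 are low without LPS and higher with it, Gbp11 is lower with LPS, and Gbp3 stays near 39 to 45 CPM in its group means.

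LPS raised the low chromosome 5 starts. At the shared start of Gbp4, Gbp8 and Gbp9 (chr5:105139254-105140667) accessibility lay between 4.65 and 7.86 CPM in the unstimulated WT libraries (median 6.33) and between 9.99 and 14.3 CPM in the LPS-treated ones (median 12.9). For AhR-KO these values were 5.61 to 6.59 CPM (median 5.94) and 11.6 to 16.3 CPM (median 14.4). Every library with LPS lay above every one without in both genotypes, and the log2 fold changes were 0.99 ± 0.10 and 1.26 ± 0.10 (SE; adjusted p = 1.19e-10 and 1.19e-13).

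The start of Gbp10 (chr5:105238880-105240213) moved most among the start peaks. Unstimulated WT libraries measured 1.56 to 1.86 CPM (median 1.65) and WT libraries with LPS 4.02 to 10.1 CPM (median 6.73). Among AhR-KO libraries the values were 1.08 to 1.52 CPM (median 1.34) and 3.57 to 6.89 CPM (median 4.93). The rise was 4.13-fold in WT and 3.83-fold in AhR-KO (log2 fold change 2.05 ± 0.18 and 1.94 ± 0.19, adjusted p = 1.87e-11 and 7.23e-11), with a wide spread among the libraries that had received LPS. A broad peak overlapped it at any length in 2 of 6 unstimulated WT libraries, 3 of 6 unstimulated AhR-KO libraries and all 12 libraries with LPS.

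At the start of Gbp6 (chr5:105292014-105294356, which is also the start of the read-through gene Gm43302) unstimulated WT libraries reached 7.82 to 12.1 CPM (median 9.77) and LPS-treated ones 14.2 to 21.8 CPM (median 16.7). Those of AhR-KO reached 7.04 to 10.1 CPM (median 8.95) and 15.6 to 19.4 CPM (median 16.6). LPS raised this peak without overlap, 1.80-fold in WT and 1.94-fold in AhR-KO (adjusted p = 6.04e-09 and 2.64e-10). The peak over the inner start of Gbp8 (chr5:105053222-105054128), chosen after the annotation had been inspected, rose 1.85-fold and 1.83-fold. Its WT libraries with LPS were scattered, from 4.79 to 11.2 CPM, and overlapped the unstimulated ones (3.58 to 6.14 CPM), whereas those of AhR-KO (7.88 to 9.65 CPM) lay above theirs (3.89 to 6.10 CPM).

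Gbp11, annotated as a polymorphic pseudogene, went the other way. Its start peak (chr5:105344775-105346970) had a median of 17.3 CPM in unstimulated WT (15.5 to 19.6 CPM) and of 11.3 CPM after LPS (at most 12.4 CPM). The AhR-KO medians were 16.9 CPM (14.7 to 19.9 CPM) and 10.9 CPM (9.44 to 12.1 CPM). The LPS-treated and unstimulated groups did not overlap, and the peak fell by 0.62 ± 0.08 in WT cells and 0.66 ± 0.08 in AhR-KO cells on the log2 scale. In WT this change sits at the threshold of 1.5-fold: without 1 unstimulated WT library (replicate 3) it was -0.58 and no longer a DAR.

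The chromosome 3 starts, already open, changed by less than 1.5-fold at the gene-record start of all 4 members. Gbp2, a GBP that acts in the release of bacteria from vacuoles, had the largest upward difference among them: its start peak (chr3:142618525-142621595, which also covers the end of Gbp2b) gave 35.7 to 41.9 CPM in unstimulated WT (median 38.8) and 51.5 to 53.9 CPM after LPS (median 53.0). The AhR-KO ranges were 36.7 to 46.0 CPM and 52.7 to 63.5 CPM. These did not overlap, and the log2 fold changes of 0.45 ± 0.06 and 0.47 ± 0.05 had adjusted p = 8.22e-09 and 2.12e-09 without reaching the fold threshold.

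At the start of Gbp3 (chr3:142559628-142561961) the group means were 43.9 ± 2.03, 39.2 ± 1.31, 45.0 ± 2.09 and 44.2 ± 4.50 CPM (SD, n = 6) in unstimulated WT, unstimulated AhR-KO, WT with LPS and AhR-KO with LPS. The start of Gbp7 (chr3:142529854-142531108) stood lower with LPS, at 33 ± 2.06 against 47.8 ± 2.53 CPM in WT, without overlap, and 36.2 ± 3.33 against 44.8 ± 2.77 CPM in AhR-KO, also without overlap. Its log2 fold changes of -0.53 ± 0.06 and -0.31 ± 0.06 stayed inside the fold threshold (adjusted p = 5.90e-10 and 1.97e-05). Gbp5 has 2 start peaks. The one at the start of the gene record (chr3:142493511-142494333) measured 22.2 to 26.9 CPM in unstimulated WT and 16.2 to 20.6 CPM after LPS, and 17.7 to 22.02 CPM and 16.6 to 20.03 CPM in AhR-KO, with a log2 fold change with LPS of -0.42 ± 0.07 in WT and -0.22 ± 0.07 in AhR-KO. The one over the start of its main coding transcript (chr3:142496243-142497769), chosen after the annotation had been inspected, measured 17.5 to 20.6 CPM in unstimulated WT and 23.9 to 29.3 CPM after LPS (log2 fold change 0.44 ± 0.07, not a DAR). In AhR-KO the same peak measured 16.9 to 19.5 CPM and 24.5 to 31.5 CPM and was a DAR at 0.59 ± 0.07, just past the threshold.

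The LPS response was also counted by place. Of the 12 tested peaks over any annotated start of a member, LPS raised 4 in WT and 5 in AhR-KO, and lowered 2 in each. Over the start peaks of 13105 protein-coding genes it raised 4.35% and 4.89% and lowered 6.46% and 11%. Of the 36 peaks in the rest of the gene bodies it raised 21 in WT and 24 in AhR-KO and lowered 3 in each. Of the 24 outside the gene bodies it raised 12 and 16 and lowered none in either genotype. Over the 161088 tested peaks that are not such start peaks LPS raised 27.1% in WT and 29.1% in AhR-KO and lowered 22.9% and 22.4%. Fewer rises at starts are thus seen over all genes too, and the difference between places was not tested for the members. The medians of the log2 fold changes at these 3 kinds of place were 0.33, 0.68 and 0.76 for WT cells, and for AhR-KO cells 0.44, 1.25 and 1.14.

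**Figure D2:**
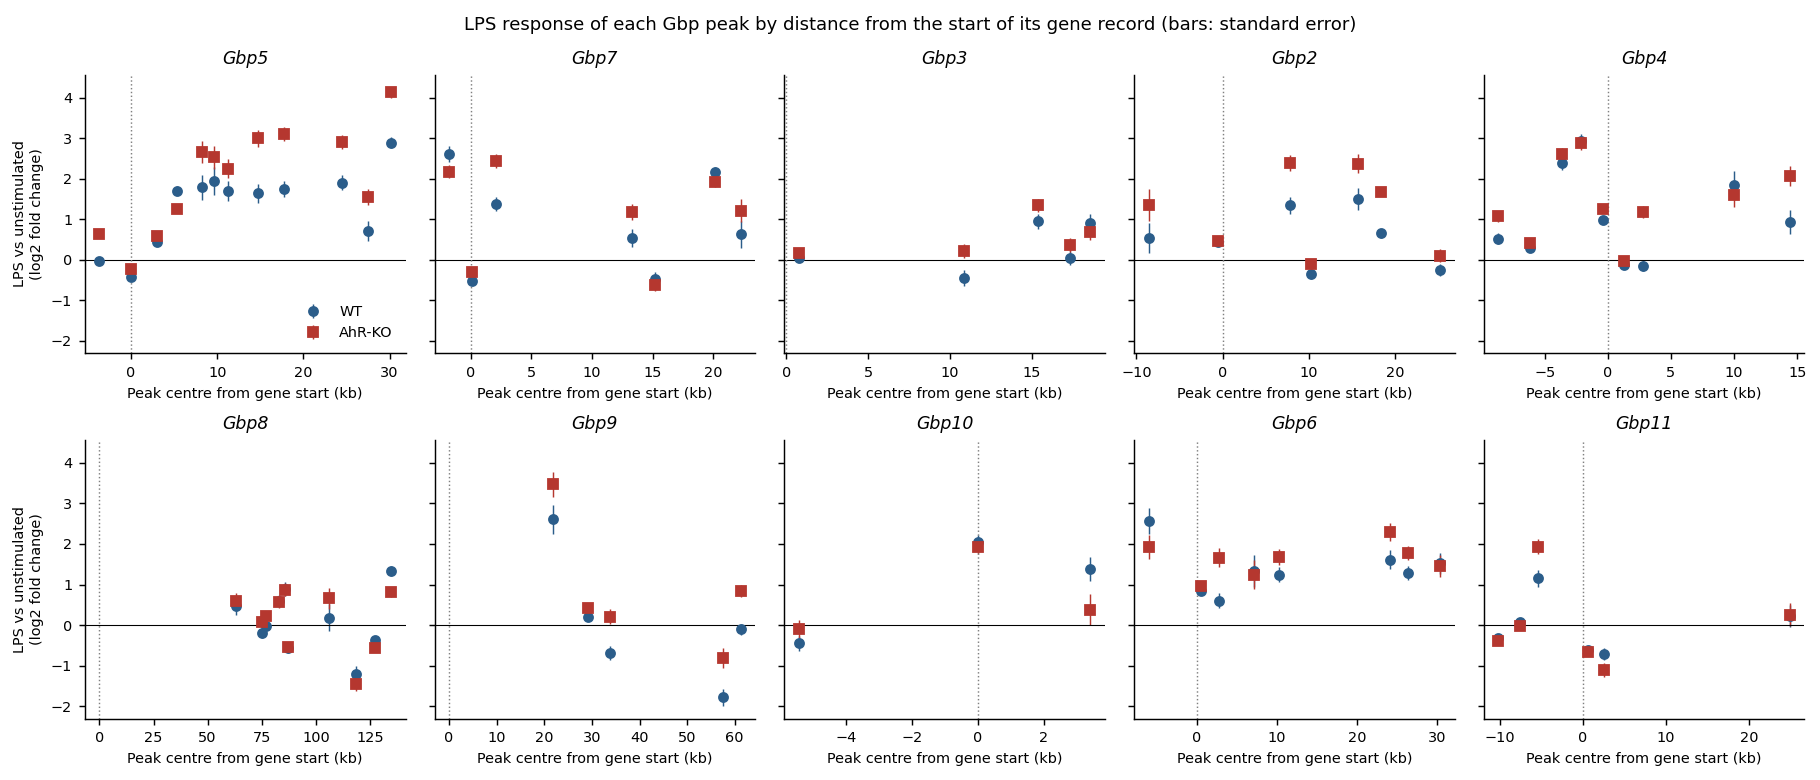
LPS against unstimulated (log2 fold change, bars are SE) for the 72 tested peaks, by the distance of the peak centre from the start of the gene record in kb, 1 panel per member; circles are WT and squares AhR-KO. For Gbp5 the points lie near 0 at the start and between 0.71 and 4.13 from 5.3 kb into the gene to beyond its end.

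The largest LPS response in AhR-KO cells, and the one of smallest p in both genotypes, was just past the end of Gbp5. The peak at chr3:142523014-142525278 lies between genes, 670 bases beyond the end of Gbp5. Its WT libraries gave 1.12 to 1.56 CPM unstimulated (median 1.47) and 7.89 to 13.1 CPM after LPS (median 10.7). Its AhR-KO libraries gave 1.23 to 1.95 CPM (median 1.52) and 22.7 to 31.1 CPM (median 28.2). The lowest AhR-KO library with LPS therefore lay above the highest WT library with LPS, while the unstimulated groups overlapped. LPS opened this peak 7.40-fold in WT cells and 17.5-fold in AhR-KO cells (log2 fold change 2.89 ± 0.14 and 4.13 ± 0.13, adjusted p = 2.08e-19 and 3.56e-25). No broad peak was called there in any of the 12 unstimulated libraries, and one was called in all 12 with LPS. The central 300 bases (chr3:142523997-142524296, plus strand, GRCm38.p6) are shown because this peak had the largest change in AhR-KO. They held no ISRE-type, GAS-type or AhR core letters.
Gbp5 downstream peak: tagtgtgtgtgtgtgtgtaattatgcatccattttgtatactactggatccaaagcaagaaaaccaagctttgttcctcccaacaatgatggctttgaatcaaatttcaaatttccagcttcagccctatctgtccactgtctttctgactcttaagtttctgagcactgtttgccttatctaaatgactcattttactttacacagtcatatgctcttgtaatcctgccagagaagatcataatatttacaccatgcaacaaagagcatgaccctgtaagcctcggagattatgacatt

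Within Gbp5 an intronic peak 5.3 kb from the start of the gene record (chr3:142499001-142499523) differed from that pattern. WT libraries measured 3.17 to 5.12 CPM unstimulated and 10.5 to 14.1 CPM after LPS, and AhR-KO libraries 4.17 to 5.34 CPM and 9.93 to 14.6 CPM. The rise was 3.25-fold in WT cells and 2.37-fold in AhR-KO cells, and with LPS the genotypes overlapped (log2 fold change -0.07 ± 0.09). Its interaction (the difference between the LPS effects) was -0.45 ± 0.15 and inside the fold threshold. Its central 300 bases (chr3:142499113-142499412, plus strand, GRCm38.p6) are shown because they held 1 ISRE-type match, in capitals, beside 4.60% of the centres of 174106 tested peaks. The same centre held 2 AhR core matches (GCGTG on either strand), letters that stood in 16.3% of the centres of tested peaks.
Gbp5 intron peak: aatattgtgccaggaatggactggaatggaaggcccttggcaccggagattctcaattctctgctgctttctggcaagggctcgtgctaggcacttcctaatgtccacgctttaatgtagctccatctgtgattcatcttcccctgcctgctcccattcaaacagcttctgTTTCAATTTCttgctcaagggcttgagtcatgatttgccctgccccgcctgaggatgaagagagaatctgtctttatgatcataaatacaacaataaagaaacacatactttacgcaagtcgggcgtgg

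Over all 76 member peaks the central 300 bases held ISRE-type letters in 10 (13.2%) and GAS-type letters in 15 (19.7%), beside 4.60% and 11% of tested peaks. AhR core letters stood in a smaller share of the member peak centres than the 16.3% over tested peaks. These differences were not tested.

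Other peaks that LPS opened on chromosome 3 lay in Gbp7 and Gbp2. A peak 1446 bases before the start of Gbp7 (chr3:142528262-142528896) measured 0.528 to 1.98 CPM in unstimulated WT and 4.77 to 8.70 CPM after LPS, a 6.09-fold rise. The AhR-KO libraries measured 1.95 to 3.42 CPM and 9.86 to 13.3 CPM, a 4.50-fold rise. The peak at the end of Gbp7 (chr3:142550109-142550886, over untranslated exon) rose 4.45-fold in WT cells, from 1.73 to 2.96 CPM up to 9.25 to 12.3 CPM, and 3.77-fold in AhR-KO cells. The peak over the end of Gbp2 (chr3:142637315-142640650) spanned 4.56 to 6.32 CPM and 7.35 to 10.5 CPM in unstimulated and LPS-treated WT, and 4.08 to 5.41 CPM and 11.9 to 18.3 CPM in AhR-KO, and rose 1.57-fold and 3.21-fold.

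On chromosome 5, 2 of the 4 peaks before the shared start of Gbp4 were raised in both genotypes. At chr5:105141283-105142200, 1697 bases before the gene, WT libraries gave 0.925 to 2.62 CPM unstimulated and 10.2 to 19.5 CPM after LPS, and AhR-KO libraries 1.65 to 2.46 CPM and 13.1 to 18.2 CPM. The rises were 7.59-fold and 7.37-fold, and the difference between them was -0.04 ± 0.26 on the log2 scale. Its central 300 bases held 2 GAS-type matches. This peak was singled out after its values were seen. Its neighbour at chr5:105143061-105143460 rose 5.19-fold in WT cells and 6.09-fold in AhR-KO cells. The peak 5586 bases before the start was a DAR in neither genotype (log2 fold change 0.29 ± 0.09 and 0.41 ± 0.09), and the one at 8539 bases was a DAR in AhR-KO (1.07 ± 0.13) and below the fold threshold in WT (0.52 ± 0.13). All 8 tested peaks of Gbp6 rose with LPS in both genotypes, with log2 fold changes of 0.60 to 2.56 for WT and 0.95 to 2.30 for AhR-KO cells (beside 25.4% and 27.3% of all tested peaks). Of these 8, 4 held more than 20% words copied elsewhere in the genome and are uncertain, the peak with the lowest WT value among them.

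The peaks that LPS closed numbered 5 in each genotype, of which 4 were the same. Besides the start of Gbp11, its neighbour over a second annotated start (chr5:105343720-105344109) spanned 4.15 to 6.19 CPM in unstimulated WT and 2.15 to 3.83 CPM after LPS, and fell by 0.70 ± 0.15 for WT and by 1.11 ± 0.17 for AhR-KO cells on the log2 scale. An intronic peak of Gbp9 (chr5:105081824-105082263) fell by 1.78 ± 0.21 for WT and by 0.81 ± 0.25 for AhR-KO cells. An intronic peak of Gbp8 (chr5:105020392-105021309) fell by 1.21 ± 0.21 and by 1.44 ± 0.17. The 2 others, each called in 1 genotype, were an exon peak of Gbp9 in WT (chr5:105105643-105105982, a fall of 0.69 ± 0.16) and, outside the naming rule, an exon peak of Gbp7 in AhR-KO (chr3:142545340-142545797, a fall of 0.61 ± 0.16).

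The comparison of genotypes asked where AhR-KO and WT cells differed at these genes. Without LPS 14 of the 72 tested peaks were DARs (19.4%, beside 22.6% of all tested peaks), 7 lower and 7 higher in AhR-KO (9.72% each, beside 12.6% and 9.95%), a share near the background. With LPS 28 were DARs (38.9%, beside 26.5%), of which 24 were higher in AhR-KO and 4 lower (33.3% and 5.56%, beside 13.4% and 13.1%). With LPS the libraries of the genotypes did not overlap for 18 peaks in the higher direction and 3 in the lower one (beside 10.6% and 8.96% of all peaks), and without LPS for 4 and 11 (beside 9.78% and 11.3%). The median log2 fold change over the members was -0.07 without LPS and 0.18 with it, against -0.02 and 0.02 over all tested peaks. The marker peaks of Flt3, Ccr7, Cd3e and Thy1 were lower and that of Fabp4 higher in AhR-KO with LPS, and their part in these counts was not tested.

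Of the 24 peaks higher in AhR-KO with LPS, 21 were also raised by LPS in AhR-KO (29.2% of the 72 tested, beside 8.35% of all tested peaks). Of the same 24, 6 were already higher without LPS, a count whose share over all tested peaks was not computed. None of the DARs in the chromosome 3 cluster was lower. This cluster carried 17 of the 24, out of 31 tested (54.8%, beside 13.4% of all tested peaks). By member these were 7 of 12 peaks of Gbp5, 5 of 7 of Gbp7, 3 of 7 of Gbp2 and 2 of 5 of Gbp3. In the chromosome 5 cluster 7 of 41 tested peaks were higher and 4 lower (17.1% and 9.76%, beside 13.4% and 13.1%), shares near the background. The difference between the clusters was not tested.

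No peak at the gene-record start of a member was a DAR between genotypes, with or without LPS (beside 4.20% lower and 2.07% higher of start peaks of 13105 protein-coding genes without LPS, and 5.65% and 1.63% with it). The log2 differences there spanned -0.32 (Gbp10) to 0.11 (Gbp2) without LPS and -0.43 (Gbp10) to 0.18 (shared start of Gbp4, Gbp8 and Gbp9) with it. Without LPS the AhR-KO libraries lay below the WT ones without overlap at the starts of Gbp3, Gbp5 and Gbp10 (0.90-fold, 0.86-fold and 0.80-fold). The same held for 11.3% of all tested peaks, and the share over start peaks alone was not computed. The largest log2 difference at a gene-record start, at Gbp10 with LPS, had an adjusted p of 0.0232 with overlapping libraries. The inner start of Gbp9 (chr5:105109665-105111060) was lower in AhR-KO without overlap in both states, 18.5 ± 1.36 against 25.1 ± 2.30 CPM without LPS and 24.7 ± 1.35 against 28.9 ± 2.58 CPM with it, at 0.74-fold and 0.85-fold and thus inside the fold threshold. The peak over the second annotated start of Gbp11 was a DAR in both states, where the log2 fold change of AhR-KO was -0.83 ± 0.16 without and -1.23 ± 0.17 with LPS.

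**Figure D3:**
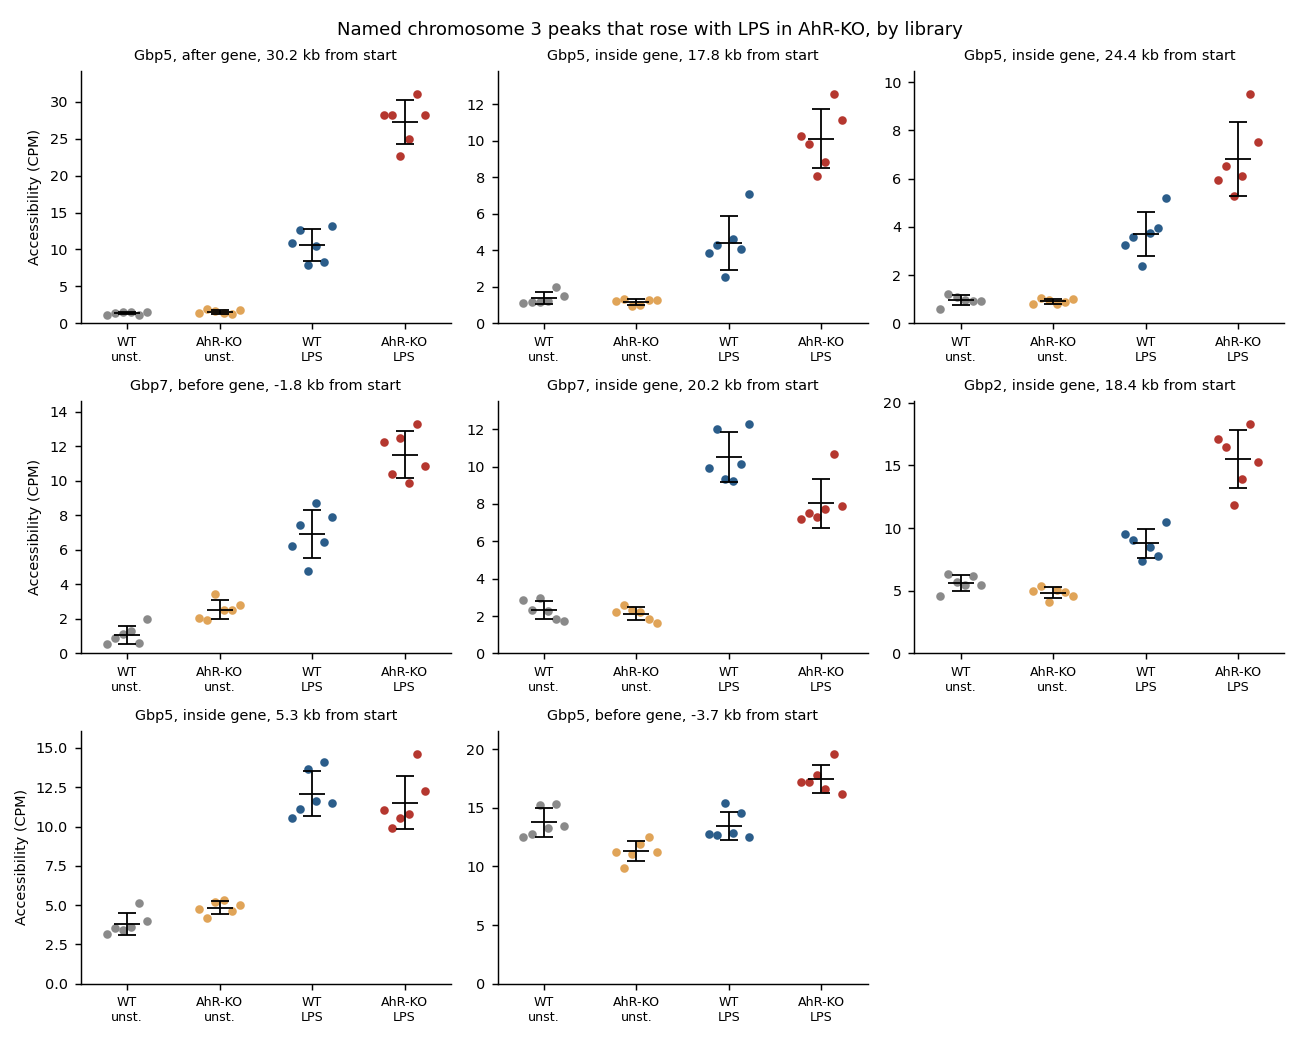
Accessibility (CPM, linear axis from 0) of 8 peaks in or beside Gbp5, Gbp7 and Gbp2 that rose with LPS in AhR-KO; each point is 1 library, bars are mean ± SD of 6 libraries, and titles give the peak centre's distance from the start of the gene record. At the peak past the end of Gbp5 the AhR-KO libraries with LPS (22.7 to 31.1 CPM) lie above the WT ones (7.89 to 13.1 CPM), and at the peak inside Gbp5 at 5.3 kb they overlap.

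The AhR-KO gain of smallest p was again at Gbp5. At the peak past its end AhR-KO exceeded WT 2.58-fold with LPS (log2 fold change 1.37 ± 0.10, adjusted p = 5.42e-13) and 1.09-fold without (0.13 ± 0.18). Inside the gene the peak at chr3:142510259-142513217, over an exon, measured 2.56 to 7.07 CPM in WT and 8.08 to 12.6 CPM in AhR-KO with LPS, 2.30 times higher. Of its 100-base words 21.6% occur elsewhere in the genome, so its fragments may not all be placed uniquely and its value is uncertain. The next peak, chr3:142517383-142519425 over coding and untranslated exon, measured 2.38 to 5.18 CPM and 5.28 to 9.53 CPM, a 1.85-fold difference. In the intron peak at chr3:142508203-142509208, which had no copied words, WT libraries with LPS measured 0.746 to 2.25 CPM and AhR-KO libraries 2.89 to 4.23 CPM, a 2.28-fold difference. This peak was singled out after its values were seen. Broad peaks overlapped it at any length in 1 of 6 WT and 6 of 6 AhR-KO libraries with LPS, and in no unstimulated library. Of calls with a −log10 q of at least 2, there were 0 of 6 in WT and 2 of 6 in AhR-KO with LPS.

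At the end of Gbp2 (chr3:142637315-142640650) AhR-KO was 1.76-fold above WT with LPS (0.82 ± 0.10, adjusted p = 1.12e-08), and 0.86-fold without (-0.21 ± 0.11). The peak before Gbp7 was higher in AhR-KO in both states, 2.26-fold without LPS (1.17 ± 0.21), where the ranges overlapped slightly, and 1.67-fold with it (0.74 ± 0.14), where none did. On chromosome 5 a peak 8638 bases past the end of Gbp8 (chr5:105004221-105005512) measured 3.83 to 5.47 CPM in WT and 9.87 to 14.2 CPM in AhR-KO without LPS, a 2.52-fold difference. After LPS the values were 8.36 to 14.1 CPM and 17.7 to 25.2 CPM, 1.75 times higher. The intronic peak of Gbp8 at chr5:105020392-105021309 was 2.42-fold higher in AhR-KO without LPS (0.662 to 1.40 CPM in WT, 2.16 to 3.03 CPM in AhR-KO).

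The DARs that were lower in AhR-KO all lay on chromosome 5. An exon peak of Gbp6 (chr5:105290823-105291203) measured 0.931 to 2.67 CPM in WT and 0.270 to 0.747 CPM in AhR-KO without LPS (log2 fold change -2.03 ± 0.24), and 1.89 to 3.73 CPM and 1.13 to 2.01 CPM with LPS (-0.97 ± 0.18). It holds 20.9% copied words and is uncertain. In Gbp9 the intronic peak at chr5:105081824-105082263 measured 1.05 to 3.13 CPM in WT and 0.678 to 1.05 CPM in AhR-KO without LPS (-1.53 ± 0.21). The lowest of those WT values was 1 library far below the other 5. Its exon peak at chr5:105105643-105105982 measured 2.07 to 4.16 CPM and 1.02 to 1.80 CPM without overlap (-1.28 ± 0.18). With LPS neither Gbp9 peak was a DAR between genotypes (-0.56 ± 0.25 and -0.39 ± 0.17).

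In Gbp10 a peak over coding exon (chr5:105235929-105236310) measured 0.517 to 1.53 CPM in WT and 0.135 to 0.407 CPM in AhR-KO with LPS, 0.28 times the WT level, but 39.6% of its words are copied and it is uncertain. In this family 7 of the 76 peaks held more than 20% copied words and 49 held none.

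Whether the response to LPS itself differed between genotypes was tested as an interaction. It was a DAR at 13 of the 72 tested peaks (18.1%, beside 10.4% of all tested peaks), all 13 in the direction of a more positive LPS effect in AhR-KO (beside 5.83% of all in that direction and 4.58% in the other). Of these, 5 lay at Gbp5, 3 at Gbp9, 2 at Gbp2 and 1 each at Gbp4, Gbp6 and Gbp7. The peaks given to Gbp9 and Gbp4 also lie in the overlapping record of Gbp8, so these labels are not unique. None of the 12 tested peaks over an annotated start was among them, where the interaction spanned -0.40 to 0.27 on the log2 scale, beside 2.35% lower and 1.10% higher over the start peaks of protein-coding genes, so that 0 of 12 is near the background. Over the tested peaks other than those starts the shares were 4.77% and 6.21%.

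By smallest p the interaction was clearest at the end of Gbp2, at 1.03 ± 0.15 on the log2 scale (adjusted p = 1.00e-05). At Gbp4 an exon peak (chr5:105136406-105137149) followed, at 1.32 ± 0.20 (adjusted p = 2.70e-05). That peak measured 2.21 to 4.10 CPM in unstimulated WT and 2.67 to 3.50 CPM in WT after LPS. In AhR-KO the values were 1.03 to 2.19 CPM and 3.01 to 4.04 CPM. The genotypes were thus apart without LPS, with a log2 fold change of -1.10 ± 0.15, and overlapped with it. The third was a peak 3005 bases before Gbp5 (chr3:142489622-142490973), at 0.65 ± 0.10. It measured 12.5 to 15.4 CPM in WT both without and with LPS, and 9.90 to 12.5 CPM and 16.2 to 19.6 CPM in AhR-KO. At the peak past the end of Gbp5 the interaction was 1.24 ± 0.21.

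**Figure D4:**
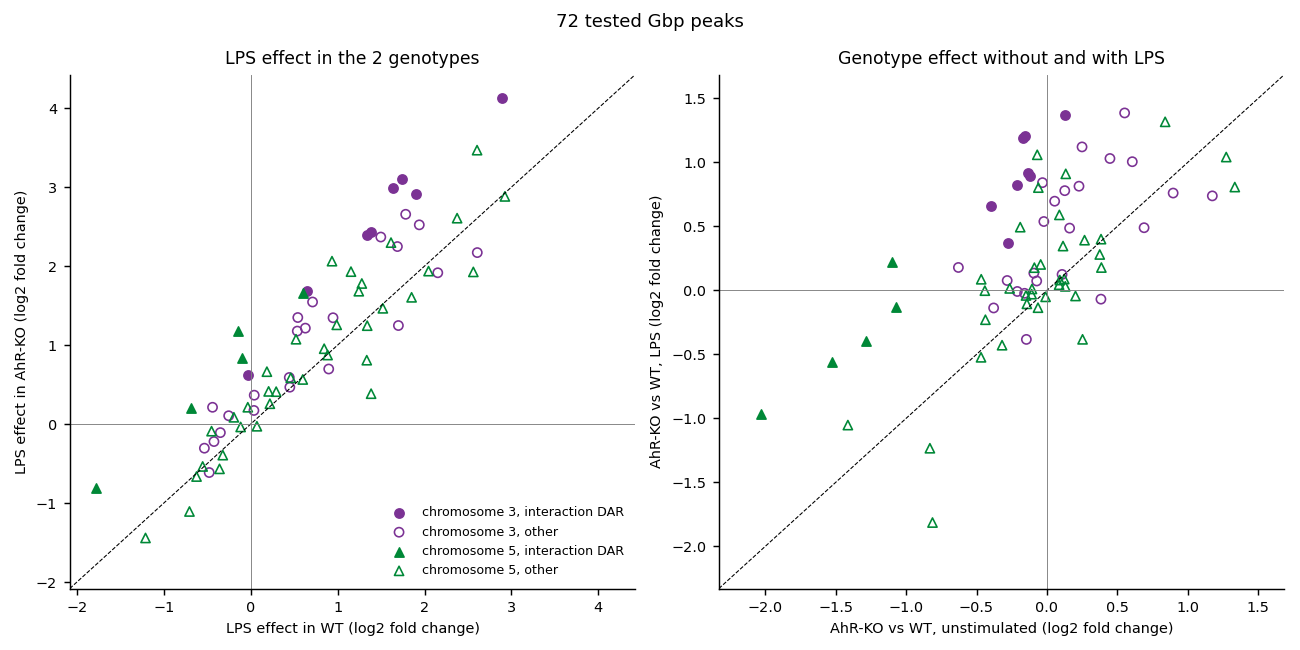
Left, LPS effect in AhR-KO against LPS effect in WT; right, AhR-KO against WT with LPS against the same without LPS, all as log2 fold changes of the 72 tested peaks. Circles are chromosome 3 and triangles chromosome 5, filled where the interaction was a DAR, and the dashed line marks equal effects; all 13 filled points lie above it.

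The broad peaks that had been called in each library separately gave counts for each group. Of the 76 member peaks, 40 were overlapped by a broad peak in at least 1 unstimulated WT library, 42 in unstimulated AhR-KO, 60 in WT with LPS and 69 in AhR-KO with LPS. These were 52.6%, 55.3%, 78.9% and 90.8% of the member peaks, beside 67.1%, 66.6%, 75.5% and 73.7% of all 184158 consensus peaks. Summed over 6 libraries these were 207, 207, 273 and 301 calls, or 45.4%, 45.4%, 59.9% and 66.0% of the possible ones, beside 49.6%, 50.9%, 58.4% and 56.2% over all consensus peaks. Median totals over consensus peaks were higher in the LPS groups (30.4 and 24.97 M counts in WT and AhR-KO, against 20.8 and 22.6 M), and their part in these counts was not tested.

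Of the peaks within 2 kb of the edge of the 10 kb window, 4 lay inside. In unstimulated WT those at 9247 bases from Gbp11, 8638 from Gbp8, 8539 from Gbp4 and 8487 from Gbp2 stood at 21.3, 4.60, 3.60 and 0.273 CPM. Those outside, at 10123 bases from Gbp11, 10343 from Gbp6, 10689 from Gbp8, 11124 from Gbp4 and 11973 from Gbp6, stood at 1.99, 0.301, 0.823, 1.95 and 7.60 CPM.

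Among 14470 other protein-coding genes, the start peaks most like the mean of the 8 member start peaks over the 24 libraries, by Pearson's r of log2 CPM, were those of Ube2l6 (r = 0.962), which encodes an ISG15-conjugating enzyme, Ddx58 (0.960), which encodes the RNA sensor RIG-I, Cd69 (0.959), Stx11 (0.959) and Nfkbiz (0.958). These libraries fall into groups with and without LPS, and all points share them. The mean joins starts that rose with LPS (such as Gbp10) and starts that fell (such as Gbp11 and Gbp7). The likeness therefore need not hold for each member. The start peak of Ube2l6 stood at 25.3, 24.7, 44.4 and 47.7 CPM in unstimulated WT, unstimulated AhR-KO, WT with LPS and AhR-KO with LPS.

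The start peaks of genes that act beside the GBPs are described next, from lists of known roles. The shares of start peaks over all protein-coding genes are those given above. Of 6 immunity-related GTPases, the smaller relatives that also act on vacuoles, LPS raised 1 in WT (Tgtp2, 1.26 ± 0.15) and 2 in AhR-KO (Tgtp2, 2.06 ± 0.16, and Iigp1, 1.23 ± 0.14). Both had an interaction DAR (0.79 ± 0.22 for Tgtp2 and 0.86 ± 0.22 for Iigp1), and Iigp1 was higher in AhR-KO with LPS by 1.33 ± 0.14. No genotype DAR was found in the other 5. Igtp and Irgm2 share 1 start peak, and Tgtp1 and Tgtp2 are near-identical copies, so that their values are uncertain. None of 6 inflammasome genes (Casp1, Casp4, Gsdmd, Aim2, Nlrp3, Pycard) was a DAR in any comparison. Of 7 autophagy conjugation genes that help to place GBPs, 1 was called, Gabarap, at 0.70 ± 0.08 higher in AhR-KO without LPS and with an interaction of -0.78 ± 0.11. For Gbp2b, the family gene outside the list, no start peak was found.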

How the data were processed

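Count and peak files were those the authors deposited. Per the labels and the methods, reads were demultiplexed with bcl2fastq 2.20.0, aligned to mm10 and processed with the nf-core atacseq pipeline; the aligner's version is not given in the sources used here. MACS2 broad peaks were called per library and merged to a consensus, and the deposited counts are whole fragments per consensus peak from featureCounts 2.0.1, with a fragment counted for every peak it overlapped by 20% or more of its length. The broad peak files hold −log10 q values as the authors deposited them. Start coordinates are printed as in the count table.

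Groups came from the labels. Counts of all 24 libraries were filtered (filterByExpr), scaled by TMM and tested with edgeR 4.0.16 (R 4.3.3; quasi-likelihood, trended dispersion, robust, group only) for 5 contrasts, and tested on simulated data. Totals of 8.54 to 34.6 M counts per library set the precision, and low peaks were the least precise. Each of 60 within-group library pairs differed by more than sampling noise. The study states 6 animals per group. The alternatives included DESeq2 1.42.0. Shown peaks were the start peak of each member and, per comparison and direction, the 3 DARs of smallest p, with others named where so stated. The family and gene lists were chosen with earlier results of these data known, and peaks were assigned to members by position. The printed promoters were chosen after the values were seen. A list of interferon signalling genes is not reported here.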

Additional observations from a re-analysis of the deposited data

Results flagged for a closer look

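The LPS effect differed between genotypes at 13 member peaks by the interaction test (edgeR, adjusted p of at most 0.05 and 1.5-fold), and 9 of them were among the peaks chosen by the naming rule. The differences at those 9, AhR-KO minus WT on the log2 scale, were 0.65 before Gbp5 (chr3:142489622-142490973), 1.36 (chr3:142510259-142513217, uncertain for its copied words) and 1.01 (chr3:142517383-142519425) inside Gbp5, and 1.24 past its end (chr3:142523014-142525278). They were 1.03 at the end of Gbp2 (chr3:142637315-142640650), 0.97 (chr5:105081824-105082263) and 0.89 (chr5:105105643-105105982) in Gbp9, 1.32 in Gbp4 (chr5:105136406-105137149) and 1.06 in Gbp6 (chr5:105290823-105291203, uncertain likewise).

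In 4 of 100 groups of 6 libraries 1 library stood far from the other 5, by a gap over 0.625 of the range (Dixon's 95% value, which chance passes in about 1 group in 20). AhR-KO replicate 5 with LPS was highest at the start of Gbp5, at 20.03 CPM against 16.6 to 17.3 CPM, and at the end of Gbp7 (chr3:142550109-142550886), at 10.7 CPM against 7.17 to 7.90 CPM. Unstimulated WT replicate 5, the shallowest library, was lowest at the Gbp9 intron peak, at 1.05 CPM against 2.52 to 3.13 CPM. Unstimulated AhR-KO replicate 3 was highest at the Gbp9 exon peak, at 1.80 CPM against 1.02 to 1.23 CPM.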

How the results depend on the processing

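The numbers of member DARs (14 between genotypes without LPS, 28 with it, 42 with LPS in WT, 50 in AhR-KO, 13 for the interaction) were recomputed under each alternative. A fold threshold of 2 gave 9 and 13 for the genotype comparisons without and with LPS, no fold threshold 23 without LPS, and gene bodies alone 9 without LPS. Thinning every library to the shallowest total gave 7 for the interaction, where fewer counts were tested. Under the other settings tried, among them DESeq2, RLE size factors, no low-count filter, a 5 kb window and only the groups compared, the 5 numbers stayed within 1.5 times of those above, as they did without the peaks of over 20% copied words, an alternative chosen after seeing the data (13, 24, 35, 44 and 11). Leaving out 1 library gave 11 to 15, 27 to 30, 40 to 44, 48 to 51 and 12 to 16.

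With the replicate number as a block the numbers were 14, 28, 42, 49 and 14, and with genotype and number together 42, 49 and 15 for the LPS effects and the interaction. Same-numbered WT libraries deviated together with r of 0.04 to 0.29 and AhR-KO libraries with 0.0038 to 0.17, and 4 of 6 and 3 of 6 correlated best with their own number. As 5 of 6 WT pairs but 2 of 6 AhR-KO pairs passed 0.1, where every pair had to, the numbers were not taken to pair the samples.

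Of the named log2 differences 403 values recomputed with all libraries kept their direction and call, 11 turned direction and 1 lost the call. Of those recomputed without 1 library 1537 kept both, 22 turned direction and 1 lost the call. Those that turned were not DARs and lay near 0. For the Gbp5 start between genotypes with LPS the values were 0.0059 with RLE, 0.065 thinned, 0.0034 with DESeq2 and -0.050 to 0.039 without 1 library. They were -0.077 to 0.0023 without 1 library for Gbp3, and 0.041 thinned and -0.093 to 0.035 without 1 library for Gbp6. For genotypes without LPS they were 0.0083 thinned at the shared start of Gbp4, and at Gbp11 0.052 with RLE, 0.0045 with only the groups compared, 0.053 with DESeq2 and -0.054 to 0.035 without 1 library. For the interaction they were -0.030 with RLE, -0.035 with DESeq2 and -0.016 to 0.047 without 1 library at Gbp2, 0.018 thinned and -0.23 to 0.030 without 1 library at Gbp10, and -0.085 to 0.0036 without 1 library at Gbp11. The calls lost were the interaction before Gbp5, 0.54 when thinned, and the LPS effect at the Gbp11 start in WT, -0.58 without unstimulated WT replicate 3. The cause was not tested. The labels attach the ionophore step to unstimulated libraries too, and depth differs between groups. Fragments of near-identical chromosome 5 copies may not all be placed uniquely, and accessibility is not expression.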
